A study of Mus musculus with 4 samples.

Results

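The genes described here encode the CD3 chains and the surface glycoproteins by which T cells are recognised: Cd3d, Cd3e, Cd3g, Cd247, Cd8a, Cd8b1, Cd4, Cd5, Cd6 and Cd2. They are 10 of 28786 gene names or identifiers on the arrays and were chosen by name, not by their values. Every non-control probe on the arrays whose gene name was one of these 10 symbols, or an earlier symbol of the same gene, was taken. This gave 19 probes of 41174, and all 19 were among the 27236 probes bright enough to be tested.

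CD8+ T cells made in culture were compared with thymic CD8+ cells, all from C57Bl/6 mice. For the cultured cells, Lin-Sca1+CD117+ marrow cells of mice aged 6 to 8 weeks were grown for 35 days with Flt3 and IL7 on OP9-DL1, stromal cells from marrow that present the Notch ligand Delta-like 1. Thymus donors were 4 to 5 weeks old, and no other treatment was given. Both kinds were sorted as CD8+ cells with high T cell receptor beta. Agilent arrays with a pair of dyes carried thymic RNA in Cy3 and in vitro RNA in Cy5. Each kind had 2 RNA preps, and each thymic prep met each in vitro prep on 1 of 4 arrays: array 1 held thymic 1 and in vitro 1, array 2 thymic 1 and in vitro 2, array 3 thymic 2 and in vitro 1, and array 4 thymic 2 and in vitro 2. Dyes were not swapped, so the dye, the donor age and the origin of the cells cannot be told apart. The series' design text calls the preps of a kind different samples and biological replicates but names no animals. A p-value here thus rests on the spread between preps, over the probe and the other tested probes, not on a known number of animals.

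The T cell receptor binds peptide on MHC molecules but has no signalling tail of its own. The CD3 delta, epsilon and gamma chains and the zeta chain (Cd247) form the rest of the complex and carry the motifs that the kinase Lck phosphorylates. CD8, a dimer of alpha and beta chains, and CD4 are coreceptors that bind MHC class I or class II and bring Lck to the receptor. CD5 and CD6 are related scavenger-receptor glycoproteins that tune receptor signals, and CD2 is an adhesion receptor that binds CD48 in mice. In the thymus, cells pass through a stage with both coreceptors and keep 1 of them as they mature.

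Cd3g, Cd3d and Cd3e lie next to each other on chromosome 9, with 1337 bases between Cd3g and Cd3d and 11682 bases between Cd3d and Cd3e in RefSeq GRCm38.p6. Cd8b1 and Cd8a are neighbours on chromosome 6 (35934 bases apart), and Cd5 and Cd6 lie 50312 bases apart on chromosome 19 with 1 gene between them. The promoter windows of the CD3 cluster are shown because its 3 genes had unequal ratios on the same arrays, and that of Cd5 because it was lower under both normalizations. Each window runs from 250 bases before to 50 bases after a RefSeq start, on the gene's own strand: chr9:44981536-44981835 (plus) for Cd3d, chr9:44980382-44980681 (minus) for Cd3g, chr9:45009562-45009861 (minus) for Cd3e and chr19:10738925-10739224 (minus) for Cd5. Capitals mark CACCTG, an E-box that E proteins can bind, and CAGGAAGT, a motif of ETS factors, on either strand (CAGGTG and ACTTCCTG on the other).
Cd3d: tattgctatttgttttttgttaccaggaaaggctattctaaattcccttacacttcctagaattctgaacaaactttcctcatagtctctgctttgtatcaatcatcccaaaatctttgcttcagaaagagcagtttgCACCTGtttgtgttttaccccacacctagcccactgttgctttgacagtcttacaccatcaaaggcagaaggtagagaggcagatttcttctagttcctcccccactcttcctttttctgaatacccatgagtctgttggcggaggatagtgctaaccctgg
Cd3g: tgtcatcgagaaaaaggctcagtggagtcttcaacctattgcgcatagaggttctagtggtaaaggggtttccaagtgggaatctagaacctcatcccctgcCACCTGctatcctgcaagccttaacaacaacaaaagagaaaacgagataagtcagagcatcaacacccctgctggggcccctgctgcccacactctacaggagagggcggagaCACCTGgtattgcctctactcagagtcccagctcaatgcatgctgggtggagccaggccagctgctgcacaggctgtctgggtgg
Cd3e: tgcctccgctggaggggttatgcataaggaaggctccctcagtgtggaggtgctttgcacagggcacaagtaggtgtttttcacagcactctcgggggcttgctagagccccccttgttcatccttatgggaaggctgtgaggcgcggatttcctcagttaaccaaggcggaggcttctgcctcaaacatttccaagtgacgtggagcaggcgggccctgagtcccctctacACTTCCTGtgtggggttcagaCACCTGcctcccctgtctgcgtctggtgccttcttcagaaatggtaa
Cd5: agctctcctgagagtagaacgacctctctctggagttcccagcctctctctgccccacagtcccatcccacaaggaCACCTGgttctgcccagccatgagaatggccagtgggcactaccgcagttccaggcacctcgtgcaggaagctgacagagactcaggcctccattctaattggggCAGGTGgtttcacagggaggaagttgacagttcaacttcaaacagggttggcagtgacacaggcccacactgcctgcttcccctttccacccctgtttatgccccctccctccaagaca

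RefSeq windows were matched for 6 of the 10 genes, and Cd2, Cd4, Cd6 and Cd8b1 had no entry. CACCTG was found in 5 of the 6 (not in that of Cd8a), against 20.2% of all 32851 windows of 300 bases. CAGGAAGT was found in those of Cd3e and Cd247, against 3.33% of all windows. No match overlapped another. These motifs were chosen after the sequences had been seen, and a match is no proof of binding.

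Ratios here are log2 of in vitro over thymic, so a negative value is lower in the in vitro cells. A pair of normalizations was set side by side because most of these probes are bright. In the first, loess removes from each array any trend of the ratio with brightness. In the second, constant normalization, 1 shift per array sets the median of the tested probes to 0. A probe was called when its adjusted p, by limma over all tested probes with Benjamini-Hochberg adjustment, was under 0.05. With 2 preps against 2, an exact permutation test of 1 probe cannot go below 0.333. The limma test also draws on the spread of all other probes.

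With loess, 12 of the 19 probes were lower in the in vitro cells and 2 were higher. One of those 2, Cd4 probe 2, was tested only through the in vitro channel in which it is high, so its call is no support of its own. With constant normalization, 5 were lower and 3 higher. All tested probes were called at 25.6% lower and 26.6% higher with loess (52.2% in all), and at 34% lower and 34.7% higher with constant normalization (68.7% in all). The members' shares were thus 63.2% lower and 10.5% higher with loess, and 26.3% lower and 15.8% higher with constant normalization. Their median was -0.59 with loess and 0.02 with constant normalization, beside 0.03 and -0.0017 for all tested probes. All 5 probes lower under constant normalization were lower under loess too: Cd5, both Cd6 probes, Cd3e probe 2 and Cd8a probe 3. Only probe 3 of Cd247 was higher under both, and none was called in opposite directions.

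The gap between the normalizations changed sign with brightness. Loess values lay above constant ones in the dimmest 10% of probes and below them in the brightest 10%. Among the members, loess minus constant was 0.53 for the dim Cd4 probe 2 and -0.96 for the bright Cd8b1 probe 1. The Cy5 signal was brighter overall: the median ratio of net signals (mean signal minus local background) over tested probes was 2.36 to 2.76 on the 4 arrays. It was 1.81 to 2.35 in the dimmest 10% of probes and 2.92 to 3.30 in the brightest 10%. The median log2 ratio on the constant scale accordingly ran from -0.52 in the dimmest 10% to 0.55 in the brightest 10%, and with loess it was 0.03 and -0.01. Of the 19 member probes, 10 were in the brightest 10%. In that class 33.6% of probes were lower and 30.7% higher with loess, against 11% lower and 71.2% higher with constant normalization. Among the 10 members there, 8 were lower with loess, and on the constant scale 3 were lower and 2 higher. On the constant scale 8 of the 10 lay below 0.15, the lower quartile of the brightest 10% of all tested probes. Dye and RNA as sources of this trend cannot be told apart here.

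**Figure D1:**
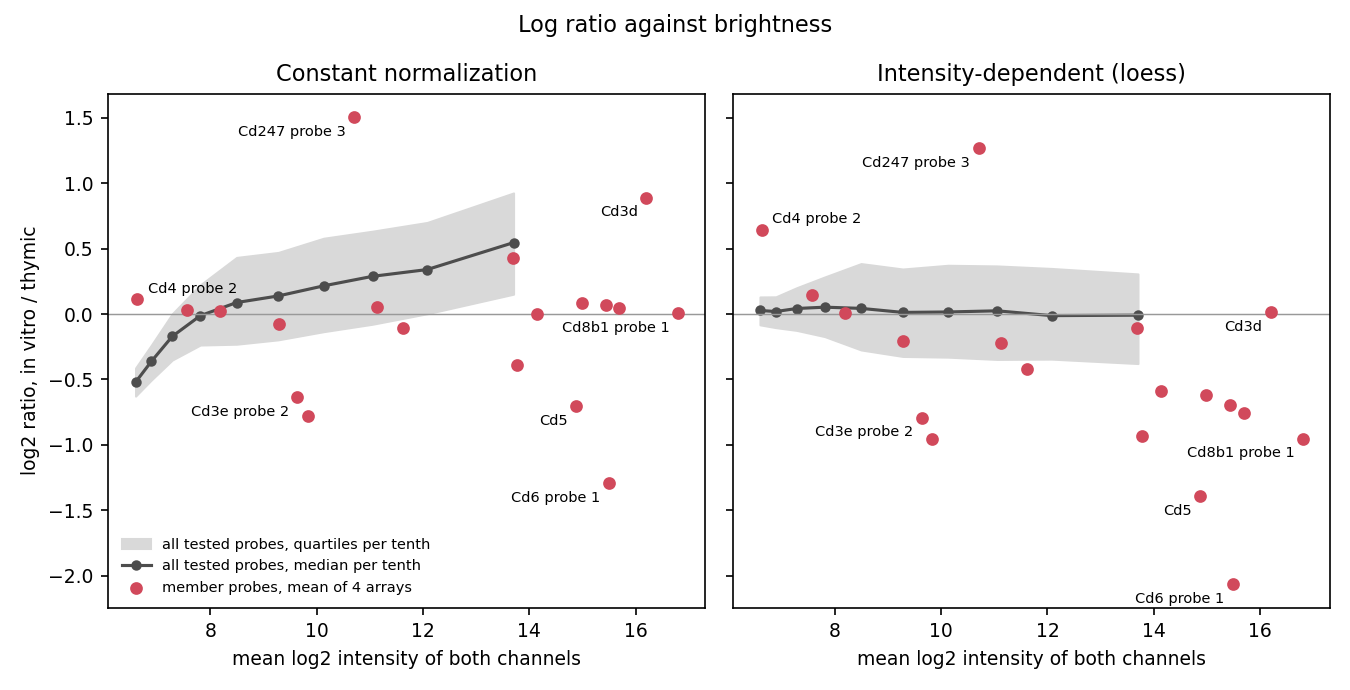
Mean log2 ratio (in vitro over thymic) against mean log2 intensity of both channels, with constant normalization (left) and loess (right). The grey line and band give the median and quartiles of all tested probes in 10 classes of brightness, and red points are the 19 member probes; on the left the line climbs from -0.52 to 0.55, and the bright members mostly lie under it.

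Among the CD3 chains, Cd3d and Cd3g, which share a short stretch of chromosome 9, had unequal ratios. Cd3d (CD3 delta) had net Cy3 signals of 36023, 36472, 39560 and 39342 on arrays 1 to 4, and net Cy5 signals of 152622, 149669, 147585 and 149295. Its loess ratios were 0.07, -0.06, 0.08 and -0.03, with a mean of 0.02 ± 0.07 (SE, 2 preps of each kind; adjusted p = 0.858, limma), so no difference was detected. With constant normalization its ratios were 0.90, 0.93, 0.86 and 0.88, and it was 1.85-fold higher (0.89 ± 0.07, adjusted p = 2.29e-04, limma). It was thus called only on the constant scale, on which the brightest 10% of probes had a median of 0.55.

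Cd3g (CD3 gamma) had net Cy3 signals of 27650, 27849, 31680 and 31206, and net Cy5 signals of 67474, 65774, 66859 and 65486. Its loess ratios were -0.63, -0.73, -0.65 and -0.77, and it was 1.62-fold lower in the in vitro cells (-0.70 ± 0.07, adjusted p = 8.64e-04, limma). The 4 arrays lay close together, all well below 0. The constant ratios were 0.10, 0.13, 0.04 and 0.02, a mean of 0.07 that was not called (adjusted p = 0.385, limma).

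The difference of 2 members' ratios on the same array removes any constant shift. Cd3d exceeded Cd3g by 0.71 on the log2 scale with loess (0.67 to 0.74 over the 4 arrays), by 0.82 with constant normalization (0.80 to 0.85), and by 0.71 in the Agilent software's processed signals (0.67 to 0.75). The ratio of Cd3d was therefore 1.64 to 1.76 times that of Cd3g, in the same direction on every array in all 3 settings. Each of these genes had 1 probe and dyes were not swapped, so probe and gene cannot be told apart here. Between probes of the same gene, mean loess differences ran from -1.37 (Cd247 probe 1 minus probe 3) to 0.37 (Cd3e probe 1 minus probe 2). Between Cd3e and Cd3g the sign depended on the setting and on the probe. With Cd3e probe 1 the difference was 0.27 with loess, 0.28 in processed signals and -0.18 on the constant scale. With Cd3e probe 2 it was -0.10, -0.18 and -0.71.

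Cd3e (CD3 epsilon, the chain that pairs with both delta and gamma) had 2 probes. Probe 1 gave loess ratios of -0.39, -0.49, -0.36 and -0.45, and was 1.34-fold lower (-0.42 ± 0.06, adjusted p = 0.00424, limma). Without thymic prep 1 its adjusted p was 0.0577, and on the constant scale it was -0.11 and not called (adjusted p = 0.191). Probe 2, 4730 bases from probe 1 in the files' coordinates, gave loess ratios of -0.63, -0.71, -0.86 and -0.96, and was 1.73-fold lower (-0.79 ± 0.10, adjusted p = 0.00194, limma). It was also lower on the constant scale (-0.63 ± 0.10, adjusted p = 0.00282). Its net signals were 540 to 781 in Cy3 and 760 to 989 in Cy5. Probe 1 exceeded probe 2 by 0.37 with loess, between 0.22 and 0.52 over the arrays, and both were negative on every array.

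Cd247, the zeta chain that carries most of the complex's signalling motifs, had 4 probes whose ratios did not agree. Probe 1, the brightest, had net Cy3 signals of 7279 to 8404 and net Cy5 signals of 21006 to 23866. Its loess ratios were -0.10, -0.17, -0.02 and -0.12 (mean -0.10 ± 0.07, adjusted p = 0.254, limma), and on the constant scale it was 1.35-fold higher (0.43 ± 0.07, adjusted p = 0.0025). Probe 4, the dimmest of the 4 with net Cy3 signals of 135 to 157, was at 0.01 ± 0.06 with loess and 0.02 on the constant scale, and was called in neither.

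Probe 2 of Cd247 gave loess ratios of -0.34, -0.18, -0.17 and -0.19, so array 1 stood apart from the other 3. Its mean of -0.22 ± 0.07 passed the threshold narrowly (adjusted p = 0.042, limma). That call was lost without array 1 (-0.17, adjusted p = 0.0875), without array 4 (adjusted p = 0.21), without any 1 of the 4 preps (adjusted p from 0.0764 to 0.353), and with the prep number as a block (adjusted p = 0.0559). The call was also lost in processed signals (adjusted p = 0.0532, limma) and with an offset of 16 (adjusted p = 0.0603, limma). Marked spots in the background model or kept ended it too (adjusted p = 0.0662 in each, limma). So did testing without a filter on dim probes (adjusted p = 0.0523, limma). Its constant mean was 0.05 and not called.

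Probe 3 of Cd247 was named 4930549J05Rik in the array design, which RefSeq lists as a synonym of Cd247. It lies 15423 bases from probe 1 in the files' coordinates, and whether it reports the same transcript cannot be told from these files. Its net Cy3 signals were 637, 651, 646 and 580, and its net Cy5 signals 4705, 3590, 4660 and 3408. Loess ratios were 1.36, 1.01, 1.51 and 1.19, and it was 2.40-fold higher in the in vitro cells (1.27 ± 0.13, adjusted p = 0.00104, limma). Constant normalization put it 2.84-fold higher (1.51 ± 0.12, adjusted p = 3.04e-04). The ratio of probe 1 minus that of probe 3 was -1.37 with loess and -1.08 on the constant scale.

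Over the 8 CD3 and zeta probes, loess called 4 lower and 1 higher with a median of -0.16, and constant normalization called 1 lower and 3 higher with a median of 0.06.

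**Figure D2:**
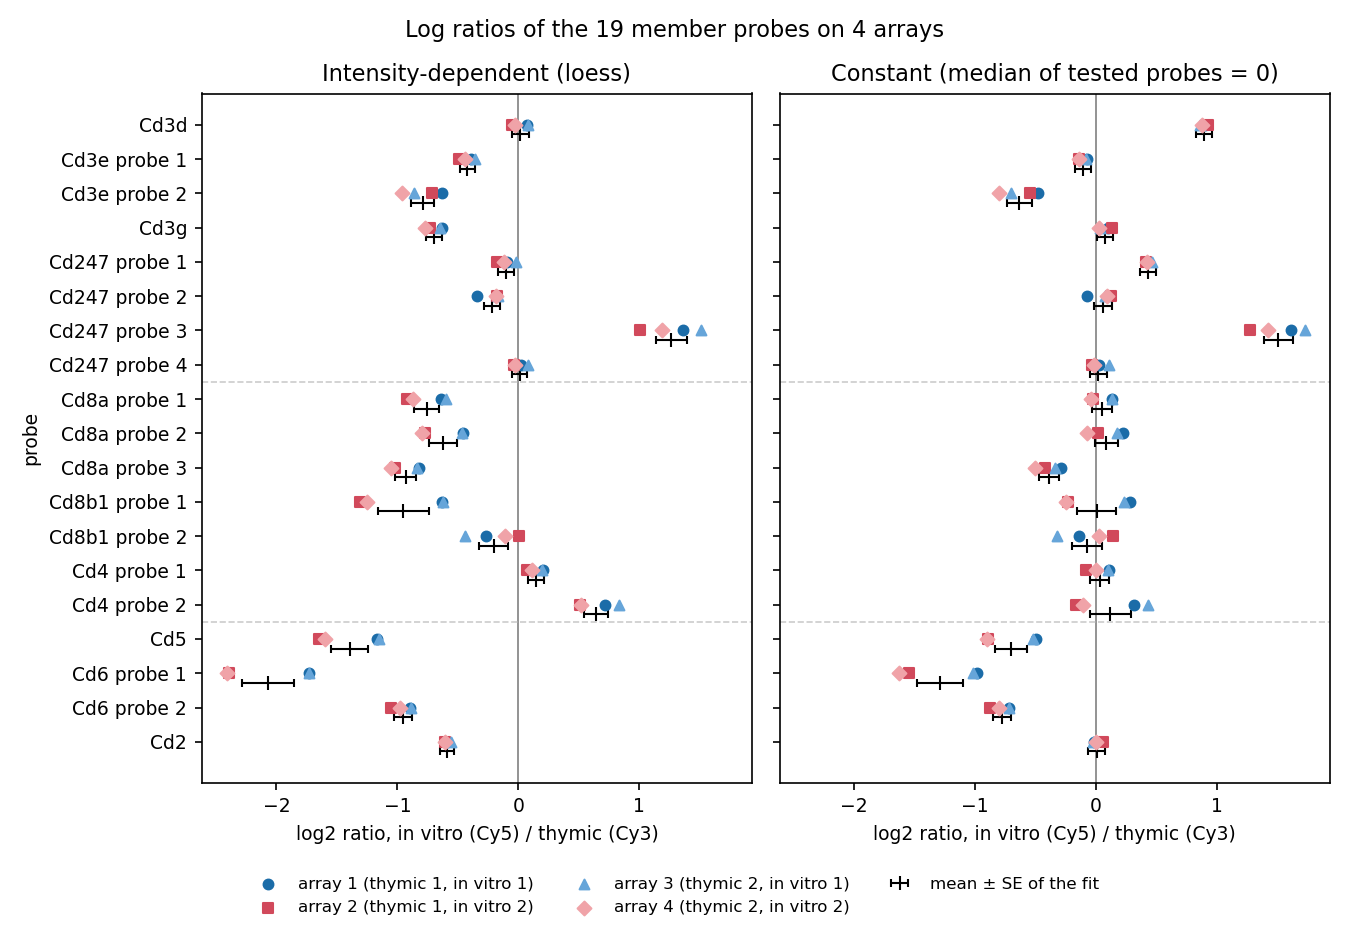
Log2 ratio (in vitro Cy5 over thymic Cy3) of each of the 19 probes on each of the 4 arrays, with loess (left) and constant normalization (right); black marks give the mean and the standard error of the fit, and dashed lines part the CD3 chains, the coreceptors, and Cd5, Cd6 and Cd2. Cd5 and the Cd6 probes lie below 0 in both panels, whereas Cd3g, Cd8a probes 1 and 2, Cd8b1 probe 1 and Cd2 move from below 0 to near 0.

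Of the coreceptors, the CD8 chains were lower with loess, whereas on the constant scale only probe 3 of Cd8a remained called. Cd8a (CD8 alpha) had 3 probes. Probe 1 had net Cy3 signals of 33792, 34162, 38840 and 36451 and net Cy5 signals of 83994, 72291, 87371 and 72911. Its loess ratios were -0.64, -0.92, -0.60 and -0.87, and it was 1.69-fold lower (-0.76 ± 0.10, adjusted p = 0.00283, limma). On the constant scale its ratios were 0.13, -0.03, 0.13 and -0.05, a mean of 0.05 that was not called (adjusted p = 0.64). On both scales the arrays with in vitro prep 1 were above those with in vitro prep 2.

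Probe 2 of Cd8a was printed as 10 spots on each array. It was 1.54-fold lower with loess (-0.62 ± 0.11, adjusted p = 0.00788, limma) and at 0.08 on the constant scale (adjusted p = 0.462). The SD over its 10 spots was 0.017 to 0.038 within an array, which measures the technical error of 1 array and not the spread between preps. Arrays 1 and 3, with in vitro prep 1, had means of -0.46 and -0.47, and arrays 2 and 4 had means of -0.77 and -0.79. Probe 3 was 1.91-fold lower with loess (-0.93 ± 0.09, adjusted p = 7.54e-04, limma) and 1.31-fold lower on the constant scale (-0.39 ± 0.08, adjusted p = 0.00783). Its constant ratios of -0.29, -0.43, -0.34 and -0.50 were below 0 on all 4 arrays.

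Cd8b1 (CD8 beta) probe 1 was brighter than 99.8% of tested probes. Net Cy3 signals were 67053, 81528, 76294 and 88918, and net Cy5 signals 184559, 149851, 184030 and 154127, and no spot of it or of any member probe was marked as saturated. Loess ratios were -0.63, -1.31, -0.63 and -1.25, and it was 1.93-fold lower (-0.95 ± 0.21, adjusted p = 0.0145, limma). The constant ratios were 0.28, -0.23, 0.23 and -0.25, so their sign followed the in vitro prep and the mean was 0.01 (adjusted p = 0.977). Probe 2, with net Cy3 signals of 344 to 468, was at -0.20 ± 0.12 with loess (adjusted p = 0.212, limma) and ran the other way between in vitro preps. The files place probe 2 on chromosome 5, whereas the gene lies on chromosome 6, so it may not report Cd8b1.

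Within arrays Cd8a probe 1 minus Cd8b1 probe 1 was -0.01, 0.38, 0.03 and 0.38 with loess (mean 0.19). On the constant scale it was -0.15, 0.20, -0.10 and 0.21 (mean 0.04). On both scales it was lower with in vitro prep 1 than with prep 2, and on the constant scale the preps had opposite signs.

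Cd4, the coreceptor of MHC class II-restricted cells, was dim in both kinds of cells. Probe 1, also printed as 10 spots, had net Cy3 signals of 80, 76, 80 and 80 and net Cy5 signals of 262, 198, 224 and 204. Its loess ratios were 0.20, 0.07, 0.20 and 0.12 (mean 0.15 ± 0.07, adjusted p = 0.12, limma), and the constant mean was 0.03, so it was called in neither. Over its unmarked spots, 8 to 9 per array, the SD within an array was 0.061 to 0.115. Probe 2 was not well above background in Cy3 on any array, where its net signals were 11 to 20, and had net Cy5 signals of 141, 60, 127 and 59.

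With loess, Cd4 probe 2 passed the threshold as higher (0.64 ± 0.10, adjusted p = 0.00435, limma), having entered the test through Cy5 alone. Because its thymic level is only a bound, the difference is given as at least 1.50-fold higher, computed on single-channel values (loess, then Aquantile) and open to dye bias. That bound holds for this setting only: the log2 value was 0.47 when marked spots entered the background model or were kept, 1.08 when the offset was 16 and 2.46 in processed signals. It was not called on the constant scale (0.12, adjusted p = 0.563), where the 4 ratios of 0.31, -0.17, 0.43 and -0.11 had both signs. The ratio of Cd4 probe 1 exceeded that of Cd8a probe 1 by 0.90 with loess (0.80 to 1.00 over arrays) and 1.00 in processed signals, whereas the difference was -0.02 on the constant scale.

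Over the 7 coreceptor probes, loess called 4 lower and 1 higher with a median of -0.62, and constant normalization called 1 lower and 0 higher with a median of 0.03.

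**Figure D3:**
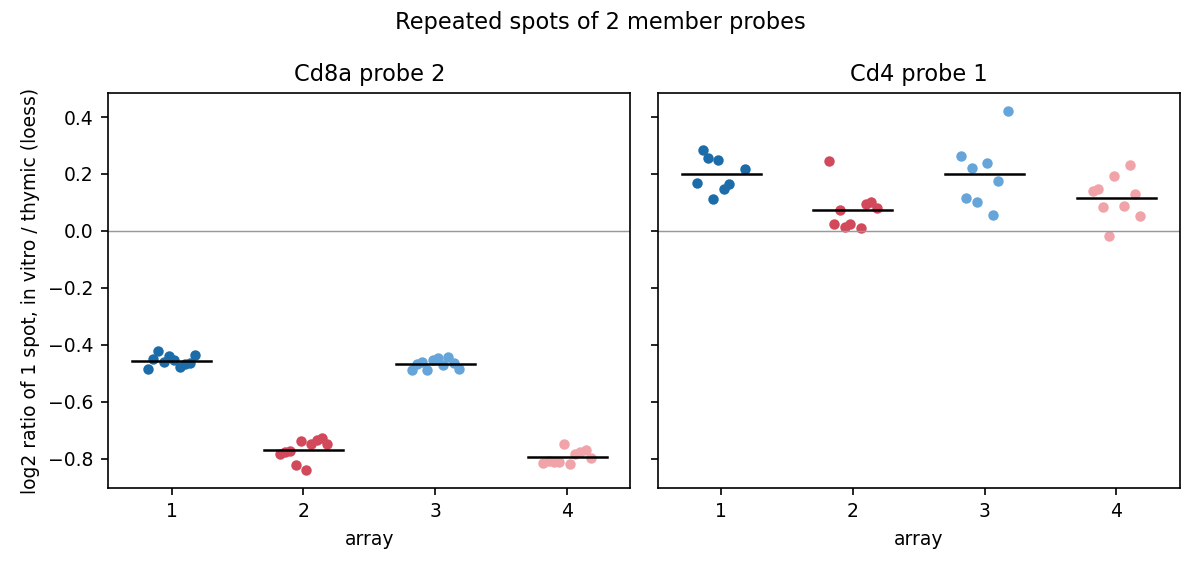
Log2 ratio (in vitro over thymic, loess) of every unmarked spot of Cd8a probe 2 (left) and Cd4 probe 1 (right) on the 4 arrays, with a black line at each mean. Cd8a array means were -0.46 and -0.47 with in vitro prep 1 and -0.77 and -0.79 with prep 2, with spots that cluster around them, whereas Cd4 spots overlap between arrays.

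With loess, Cd5 and Cd6 probe 1 had the lowest ratios among the members. On the constant scale Cd6 probe 2 (-0.78) also lay below Cd5 (-0.70). Cd5, a negative regulator whose surface level rises with the strength of receptor signals in the thymus, had net Cy3 signals of 24388, 25511, 28808 and 26330 and net Cy5 signals of 39295, 29721, 41308 and 28999. Loess ratios were -1.17, -1.65, -1.16 and -1.60, and it was 2.63-fold lower in the in vitro cells (-1.39 ± 0.16, adjusted p = 0.00137, limma). On the constant scale the ratios were -0.50, -0.89, -0.52 and -0.91, and it was 1.63-fold lower (-0.70 ± 0.13, adjusted p = 0.00554). All 4 arrays were below 0 on both scales, and the 2 with in vitro prep 2 were the lower ones.

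Cd6, a relative of Cd5 that binds CD166 (Alcam), had 2 probes. Probe 1 had net Cy3 signals of 44322, 47978, 53504 and 52010 and net Cy5 signals of 51024, 35528, 54333 and 34744. It was the only member probe for which Cy5 was dimmer than Cy3 on any array before normalization: the net ratios were 1.15, 0.741, 1.02 and 0.668. Loess ratios were -1.73, -2.39, -1.73 and -2.41, and it was 4.19-fold lower (-2.07 ± 0.22, adjusted p = 0.00111, limma). Constant normalization put it 2.45-fold lower (-1.29 ± 0.19, adjusted p = 0.00212). Probe 2, 3531 bases away in the files' coordinates and with net Cy3 signals of 726 to 853, was 1.94-fold lower with loess (-0.95 ± 0.07, adjusted p = 3.67e-04, limma) and 1.72-fold lower on the constant scale (-0.78 ± 0.07, adjusted p = 5.08e-04). The direction agreed between the probes, but the ratio of probe 1 minus that of probe 2 was -1.11 with loess.

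Within arrays the ratio of Cd5 exceeded that of Cd6 probe 1 by 0.67 with loess (0.56 to 0.81), 0.59 with constant normalization (0.48 to 0.72) and 0.69 in processed signals (0.57 to 0.83). With Cd6 probe 2 the order turned: the difference was -0.44 with loess and -0.33 in processed signals, and 0.08 on the constant scale, where the arrays had both signs. Which of the 2 genes was lowered more thus depends on the Cd6 probe.

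Cd2, the adhesion receptor, had net Cy3 signals of 11790, 11782, 13384 and 12418 and net Cy5 signals of 26534, 26507, 27065 and 25640. Loess ratios of -0.59, -0.61, -0.56 and -0.61 had the smallest SE of any member, and it was 1.51-fold lower (-0.59 ± 0.06, adjusted p = 9.18e-04, limma). On the constant scale the ratios were -0.02, 0.06, -0.03 and -0.00046, and the mean was 0.0033 (adjusted p = 0.967). Its loess value was the size of the shift between the normalizations, which was -0.59. Over the 4 probes of Cd5, Cd6 and Cd2, loess called 4 lower with a median of -1.17, and constant normalization called 3 lower with a median of -0.74.

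**Figure D4:**
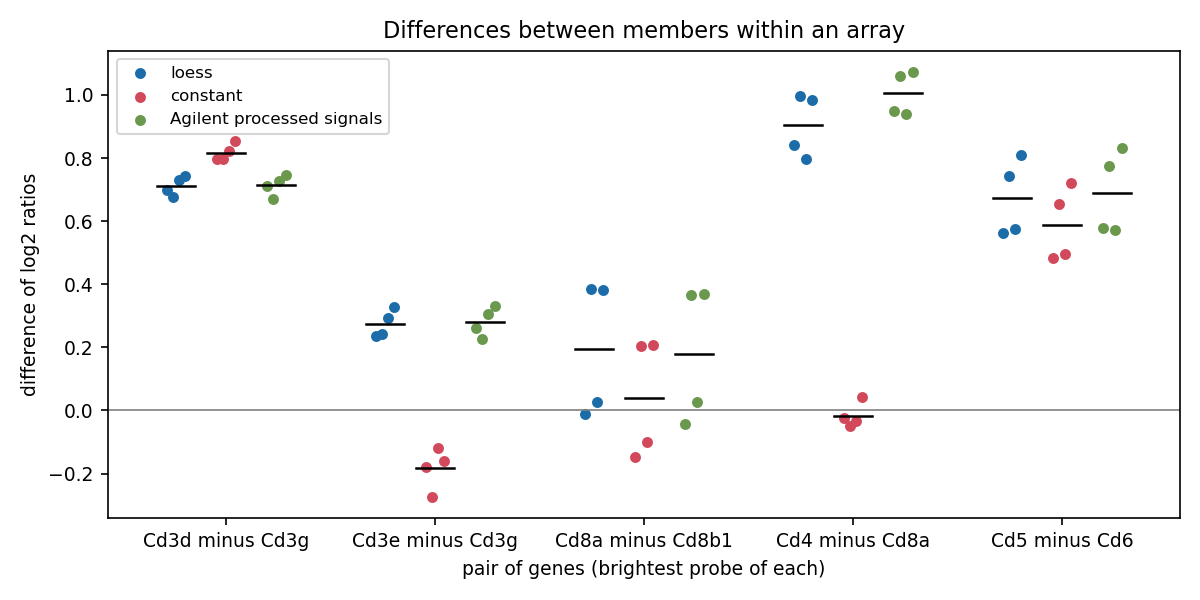
Difference between 2 genes' log2 ratios on the same array, for 5 pairs (brightest probe of each gene), with loess, constant normalization and Agilent processed signals; points are the 4 arrays and black lines their means. With these probes Cd3d minus Cd3g and Cd5 minus Cd6 are above 0 on every array in all 3 settings, whereas Cd3e minus Cd3g and Cd4 minus Cd8a change sign or vanish on the constant scale.

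After loess, to which all gaps given here belong, the preps of the in vitro cells differed from each other more than the thymic preps did. The in vitro gap was the larger one for 17 of the 19 probes, beside 67.8% of all tested probes. In vitro prep 1 was above prep 2 for 17 of the 19, beside 48.0% of all tested probes. On the constant scale this order turned for Cd3d and Cd2. Cd3d ratios there were 0.90 and 0.86 with in vitro prep 1 and 0.93 and 0.88 with prep 2. For Cd3g the order on that scale differed between the thymic preps. The direction of the in vitro gap thus depended on the normalization for these bright probes. The median size of the gap was 0.13 for members and 0.10 for all tested probes in the in vitro preps, and 0.04 and 0.05 in the thymic preps. The gaps were 0.67 for Cd6 probe 1, 0.65 for Cd8b1 probe 1, 0.46 for Cd5, 0.34 for Cd247 probe 3 and 0.32 for Cd8a probe 2. Only 0.753% of all tested probes had a gap larger than that of Cd6 probe 1, 0.855% a gap larger than that of Cd8b1 probe 1, and 3.04% a gap larger than that of Cd5. Probe 2 of Cd8b1 (-0.30) and probe 2 of Cd247 (-0.07) were lower in in vitro prep 1. With 1 prep on each side, these gaps have no test. Between thymic preps the widest gap was -0.24, for Cd3e probe 2.

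**Figure D5:**
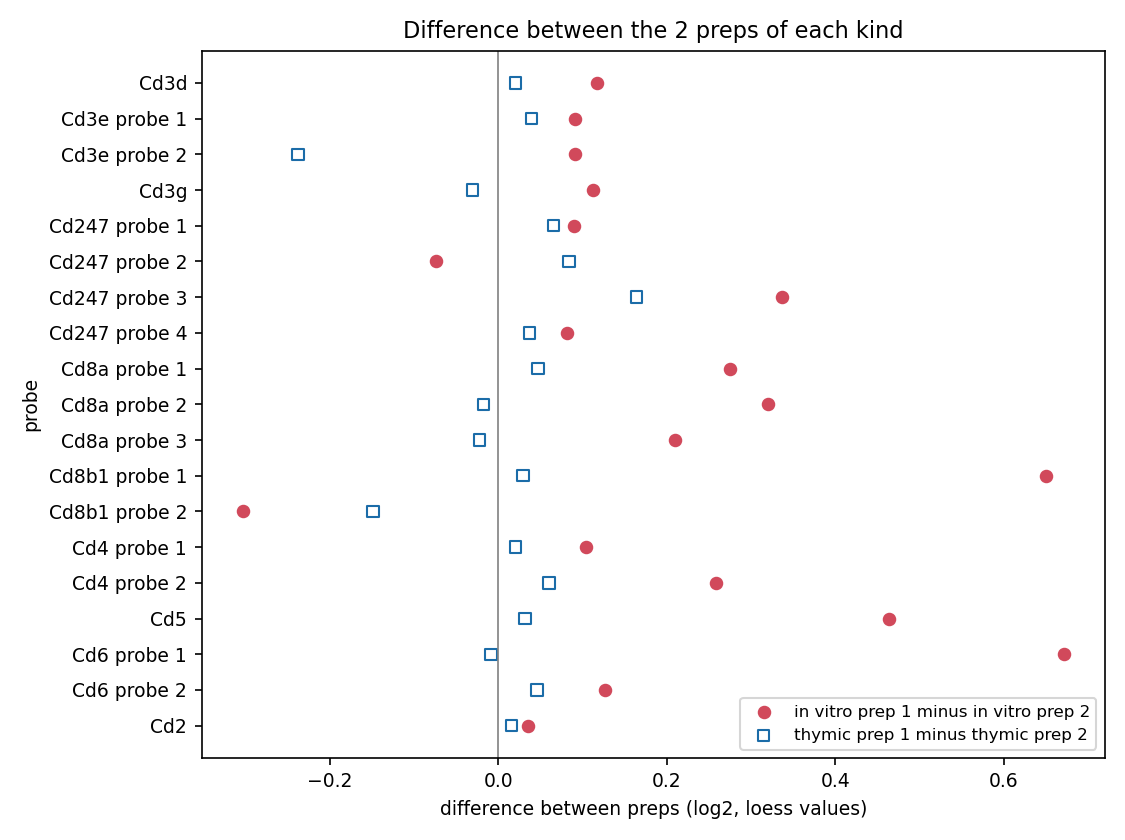
Difference between the 2 in vitro preps (filled circles) and between the 2 thymic preps (open squares) for each member probe, on the log2 scale after loess. The circles reach 0.67 for Cd6 probe 1 and 0.65 for Cd8b1 probe 1, whereas the squares stay between -0.24 and 0.16.

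Of the proximal signalling partners of these receptors, 22 of 22 genes were tested on their brightest probe. Loess called 14 lower and 4 higher (median -0.41), and constant normalization 6 lower and 7 higher (median 0.08). Of all tested probes, loess called 25.6% lower and 26.6% higher, and constant normalization 34% lower and 34.7% higher. The largest decreases with loess were in Ubash3b, a phosphatase that restrains receptor signalling (-2.45 ± 0.26), the kinase Fyn (-1.07 ± 0.06) and the adaptor Pag1 (-1.05 ± 0.08), with constant values of -2.18, -0.80 and -0.71. The largest increases with loess were in Trat1, an adaptor that binds the zeta chain (1.22 ± 0.06), the ubiquitin ligase Cbl (1.04 ± 0.07) and Themis, a regulator of thymic selection (0.56 ± 0.06), with constant values of 1.55, 1.24 and 0.81. The order differs on the constant scale, where Lck (1.34, and 0.49 ± 0.12 with loess) exceeds Cbl, and Lck and Lat (0.87) exceed Themis; Lck and Lat are outside the rule for naming and are given for this comparison.

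Of 30 other T cell surface glycoproteins, 29 were tested. Loess called 19 lower and 6 higher (median -0.63), and constant normalization 13 lower and 9 higher (median -0.06). The same shares of all tested probes stand beside these counts. Both lists had loess medians below 0, as did the member probes (-0.59), so lower loess ratios were not particular to the members. The largest decreases with loess were in Cd52 (-3.17 ± 0.06), Cd7 (-2.83 ± 0.35) and the adhesion receptor Cd226 (-2.72 ± 0.06), with constant values of -2.30, -2.41 and -2.52. The largest increases with loess were in the costimulatory receptor Cd28 (1.48 ± 0.08), Cd47, which signals to phagocytes (1.25 ± 0.09), and Thy1 (1.00 ± 0.13), with constant values of 1.73, 1.92 and 1.89. All 12 genes named from these lists were called under both normalizations.

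Markers of CD8 T cells (8 of 8 genes) were well above background in both channels on all 4 arrays, so the labelled cell type's markers were present in both kinds. Loess called 3 of them higher and 5 lower (median -0.59), and constant normalization 3 higher and 2 lower (median 0.03). Cd8a, Cd8b1, Cd3e and Cd5 of this list are members themselves. Runx3 was lower under both (-0.87 and -0.65). Detection alone does not show how pure either kind was. Markers of other cells were counted with loess as well. Of all tested probes, 26.6% were called higher and 25.6% lower with loess. Of the double-positive thymocyte markers, 7 of 8 tested were higher in the in vitro cells and 0 lower (median 3.83); their summed net signal was 9575 to 10927 in the thymic preps and 432256 to 507640 in the in vitro preps. Rag2, one of that list, was not well above background in Cy3 on any array. Of the stromal markers, 9 of 10 tested were higher and 1, Vim, lower. Of the 9, 4 (Fstl1, Fn1, Thbs1 and Postn) were tested only through the in vitro channel, and the other 5 include Col1a1 (3.71) and Pdgfrb (4.69). Dcn, Lum and Pdgfra, also on that list of 13, were not tested. None of them was well above background in Cy5 on more than 1 array. The stromal sums were 24858 to 28960 and 57539 to 77762, most of the thymic sum being Vim; without it they were 478 to 529 and 15884 to 18949. Of the gamma delta T cell markers 3 of 3 tested were higher, 2 of them (Sox13 and Blk) tested only through the in vitro channel, with sums of 165 to 186 and 9917 to 12565. Of the CD4 and regulatory T cell markers 2 of 2 tested were higher (Ctla4 and Ikzf2), with sums of 372 to 385 and 4663 to 5086, and Zbtb7b and Cd40lg were not well above background on any array. The counts were 2 higher and 0 lower of 5 for NK cells, 1 and 1 of 7 for B cells, 3 (1 of them, Itgam, tested only through the in vitro channel) and 2 of 9 for myeloid and dendritic cells, 1 and 0 of 4 for erythroid cells, and 0 and 1 of 5 for thymic epithelial cells. Counts so small, set beside those shares, are not read as a change in these last cell types. The sums above carry the brighter Cy5 channel, and the part of other cells in the members' ratios was not tested. In bulk RNA, fewer cells of a type and less RNA per cell cannot be told apart.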

How the data were processed

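The authors deposited 1 scanner file per array, with linear intensity values of both channels; per the file headers the scanner software was Agilent Feature Extraction, version 9.5.1.1. Per the file headers these files also hold processed signals and a log10 ratio of Cy5 over Cy3. The deposited series table holds the same log10 ratios: set against them over all probes, every array had a correlation of at least 0.9999, and each column had a median of 0. It was used only for this comparison.

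Here, spots marked as non-uniform or outliers (133 to 187 per array) were left out, background was corrected by normexp (offset 50), and arrays were normalized by loess (span 0.3, control spots at weight 0) in limma 3.58.1 and R 4.3.3. Spots of a probe were averaged. Probes were tested where well above background (at least 0.5 of a probe's spots) on all 4 arrays in at least 1 channel. The 4 ratios gave 4 prep values per probe by least squares, which lmFit and eBayes compared (2 residual degrees of freedom), with Benjamini-Hochberg adjustment over 27236 probes and a threshold of 0.05. The script was tested on simulated data. The number of arrays limits the precision.

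Alternatives were constant normalization, processed signals, quantile normalization, other background and filter choices, 1 value per gene, the prep number as a block, and leaving out each array or prep. All member probes are named; from the 2 context lists, up to 3 called genes with the largest increase and 3 with the largest decrease. The members, lists and tests were chosen with earlier results of these data known. Names were updated through RefSeq GRCm38.p6 accessions (22951 probes matched). The sources used here give no build for the probe coordinates, so only distances between probes are printed.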

Additional observations from a re-analysis of the deposited data

Results flagged for a closer look

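The loess ratio of Cd247 probe 2 on array 1 was -0.34, whereas the other 3 arrays lay between -0.19 and -0.17. Its distance from the nearest other array, as a share of the whole range, exceeded Dixon's 95% critical value for 4 values. It was the only one of the 19 member probes to do so, and chance marks about 1 in 20 such groups.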

How the results depend on the processing

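The choice between loess and constant normalization changed the results most. With constant normalization over tested probes 3 probes were higher and 5 lower, the median was 0.019, and the sign turned for Cd3g (0.073), Cd247 probes 1 (0.43) and 2 (0.054), Cd8a probes 1 (0.046) and 2 (0.085), Cd8b1 probe 1 (0.0057) and Cd2 (0.0033). Of the differences within arrays, Cd3d minus Cd3g moved to 0.82, and Cd3e minus Cd3g (-0.18) and Cd4 minus Cd8a (-0.017) turned. An alternative chosen after seeing the data set the median of all non-control spots to 0, which put the median of all tested probes at 0.37 (16110 higher, 3160 lower). There 12 member probes were higher and 2 lower, both of Cd6, the member median was 0.39, and the sign turned for Cd3e probe 1 (0.26), Cd3g (0.44), Cd247 probes 1 (0.80) and 2 (0.43), Cd8a probes 1 (0.42) and 2 (0.46), Cd8b1 probes 1 (0.38) and 2 (0.30) and Cd2 (0.38). Cd5 (-0.33, adjusted p = 0.0645), Cd3e probe 2 (-0.26, adjusted p = 0.0655) and Cd8a probe 3 (-0.02, adjusted p = 0.866), by limma, lost their calls there. Both Cd6 probes stayed lower and Cd247 probe 3 stayed higher in every setting that tested them. The brightest probe of each of the 10 genes gave 0 higher and 7 lower. The mean over a gene's probes gave 2 higher and 7 lower, the 2 being Cd247 (0.24) and Cd4 (0.40). A filter on both channels left 1 probe higher, because Cd4 probe 2 was not tested. Probes near 0 and not called with loess also turned: Cd3d (-0.029 in processed signals, -0.042 to 0.075 without 1 array or prep) and Cd247 probe 4 (-0.073 in processed signals, -0.052 by quantiles, -0.010 with the background model on all spots, -0.011 with marked spots kept, -0.030 to 0.051 without 1 array or prep). On the constant scale Cd3d was called higher (0.89), and Cd247 probe 4 was not called. Exchanging a probe for another of its gene, also chosen after seeing the data, gave -0.096 for Cd3e minus Cd3g (Cd3e probe 2), -0.55 for Cd8a minus Cd8b1 (Cd8b1 probe 2), -0.44 for Cd5 minus Cd6 (Cd6 probe 2), and 1.40 (Cd4 probe 2), 0.77 (Cd8a probe 2) and 1.08 (Cd8a probe 3) for Cd4 minus Cd8a. Leaving out 1 array or prep gave 2 higher, 10 to 12 lower and medians of -0.61 to -0.46. The prep number as a block gave 2 higher and 11 lower; it only says which samples share a number, and the call it ended was that of Cd247 probe 2. Other settings gave 2 to 3 higher and 11 to 12 lower. The added higher call was that of Cd4 probe 1 with a loess span of 0.7 (0.21, adjusted p = 0.0442, limma). Dim signal over background limits both Cd4 probes.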
